A study of Mus musculus with 5 samples.

Results

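The glutathione S-transferases are described here through 10 genes, Gsta1, Gsta2, Gsta3, Gsta4, Gstm1, Gstm2, Gstm5, Gstp1, Gsto1 and Gstt2, out of the 32285 genes of the count matrix. They were taken as the rows with these symbols, because members of the family had led a group of tubule cells that came mostly from the third of 5 libraries. The levels in tubule cells of that library therefore chose the genes, and they are given as a description with no test: the genes were chosen by their UMI counts there. All 10 symbols were found, each in 1 row.

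The study compared mouse kidneys after unilateral ischemia-reperfusion (UIR), a model of acute kidney injury in which the left renal pedicle is clipped and then released, with kidneys of sham-operated mice that were opened but not clipped. The groups were sham and UIR at day 1, 3, 14 and 28, with 1 sample each, and the labels describe a kidney sample as taken from 3 mice. By the methods the mice were male C57BL/6J of 6 to 8 weeks, and whether the 3 were joined in 1 library is not clear from the sources used here. Cells were freed with enzymes and sequenced with the 10x Genomics 3' kit, which counts unique molecular identifiers (UMIs) at the ends of transcripts. The matrix joins 5 libraries that differ only by a barcode suffix, and no label ties a suffix to a day or to sham. The libraries were therefore numbered 1 to 5 and treated as parts of 1 pooled sample. No comparison between sham and UIR could be made, and no p-value is given. Comparisons of classes of cells were not tested across libraries. They are shown within each library for the 10 genes, and with libraries pooled for the lists of other genes.

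Glutathione S-transferases join glutathione to reactive electrophiles, which makes these compounds soluble and ready for export. The cytosolic enzymes fall into classes named by Greek letters, and they include alpha (Gsta), mu (Gstm), pi (Gstp), theta (Gstt) and omega (Gsto). The kidney proximal tubule is known for high levels of alpha class enzymes, which leak into the urine when its cells are damaged. Conjugates are cut to mercapturates at the brush border and inside the tubule cell, and several GST genes are known targets of the oxidative stress factor Nrf2.

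In the mouse genome (GRCm38) the 10 genes lie in a few groups. The alpha genes on chromosome 9 were Gsta4 (ENSMUSG00000032348, chr9:78182774-78209349, + strand), Gsta1 (ENSMUSG00000074183, chr9:78230656-78242684, + strand) and Gsta2 (ENSMUSG00000057933, chr9:78331018-78355788, - strand). Gsta3 (ENSMUSG00000025934) lies apart from them at chr1:21240589-21265661 on the + strand. The mu genes were Gstm5 (ENSMUSG00000004032, chr3:107895821-107898686, + strand), Gstm2 (ENSMUSG00000040562, chr3:107981702-107986453, - strand) and Gstm1 (ENSMUSG00000058135, chr3:108012255-108017973, - strand). On chromosome 19 were Gstp1 (ENSMUSG00000060803, chr19:4035407-4037985, - strand) and Gsto1 (ENSMUSG00000025068, chr19:47854970-47864790, + strand). Gstt2 (ENSMUSG00000033318) lies at chr10:75831114-75837424 on the - strand.

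RefSeq promoter windows of 250 bases (GRCm38.p6) were found for 8 of the 10 genes, and Gsta4 and Gstt2 had no entry. The windows of Gsta1 (chr9:78230419-78230668, + strand) and Gsta2 (chr9:78347146-78347395, - strand) are shown because these neighbouring genes have near-identical stretches and yet differed in how far their levels varied between libraries. The windows were 72.6% identical over 263 aligned columns, and capitals mark their longest shared run, 29 bases that start at -118 in Gsta1 and -121 in Gsta2, counted back from the RefSeq start.
Gsta1: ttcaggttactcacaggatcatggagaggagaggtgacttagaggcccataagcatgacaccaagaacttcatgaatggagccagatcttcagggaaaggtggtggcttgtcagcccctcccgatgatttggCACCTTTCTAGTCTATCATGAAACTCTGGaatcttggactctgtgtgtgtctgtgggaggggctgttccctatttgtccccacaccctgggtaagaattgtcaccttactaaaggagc
Gsta2: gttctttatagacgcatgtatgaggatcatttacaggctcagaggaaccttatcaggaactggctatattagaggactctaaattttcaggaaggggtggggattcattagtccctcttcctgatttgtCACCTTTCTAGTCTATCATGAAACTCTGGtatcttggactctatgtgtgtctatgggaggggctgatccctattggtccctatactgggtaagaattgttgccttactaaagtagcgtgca

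Windows of Gsta3 (chr1:21240335-21240584, + strand), Gstm5 (chr3:107895604-107895853, + strand) and Gstp1 (chr19:4037913-4038162, - strand) are shown because they held the only motif matches among these windows. Capitals mark matches to the core of the antioxidant response element, to which Nrf2 binds (letters TGACNNNGC), and to the AP-1 site (letters TGANTCA), both searched on both strands. The antioxidant core was found at -121 in Gsta3 and at -42 in Gstm5, and in 10.2% of all 32851 windows. The AP-1 letters were found at -176 in Gstm5 and at -74 in Gstp1, and in 6.75% of all windows. The matches did not overlap, and they describe letters only.
Gsta3: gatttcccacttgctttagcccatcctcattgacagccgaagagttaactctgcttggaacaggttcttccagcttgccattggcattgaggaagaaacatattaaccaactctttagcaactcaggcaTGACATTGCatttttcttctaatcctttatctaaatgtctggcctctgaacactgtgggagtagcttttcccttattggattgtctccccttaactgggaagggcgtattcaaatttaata
Gstm5: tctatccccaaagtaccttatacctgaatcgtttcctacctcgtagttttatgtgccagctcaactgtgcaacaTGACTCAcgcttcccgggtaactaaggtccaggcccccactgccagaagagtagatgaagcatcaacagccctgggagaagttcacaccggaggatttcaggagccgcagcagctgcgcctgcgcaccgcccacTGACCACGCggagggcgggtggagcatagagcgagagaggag
Gstp1: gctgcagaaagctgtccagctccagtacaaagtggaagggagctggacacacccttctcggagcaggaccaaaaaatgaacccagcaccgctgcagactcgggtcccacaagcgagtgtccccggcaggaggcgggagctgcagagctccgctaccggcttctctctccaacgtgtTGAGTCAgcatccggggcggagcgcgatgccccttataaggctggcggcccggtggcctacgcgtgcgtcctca

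The 5 libraries held 82426945 to 139382799 UMIs, library 3 the most, over 10474594 barcodes that included empty droplets. Cells were called anew, and 57725 passed the study's limits of at least 200 genes and at most 25% mitochondrial UMIs, against 79202 barcodes of at least 500 UMIs that met these limits without the calling. Library 3 gave 19026 cells and the other libraries 8299 to 11312, with median UMIs per cell between 4036.5 and 5324. In library 3 the calling reached its limit of 20000 tested barcodes, so its droplets under 661 UMIs were not tested. Between 19 and 68 barcodes were shared by a pair of libraries, at most 0.601% of the smaller one. The labels name the cells as goblet cells, but of 6 goblet cell genes the highest, Spdef, had 43 UMIs in all cells, and 1 cell had UMIs of at least 2 of these genes. The class names that follow rest on marker genes, carry the ending -like, and hold for 51621 cells.

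Of these, 45810 cells were proximal tubule-like. Cells with markers of the first segment, S1, numbered 15541, those with markers of the last, straight segment, S3, numbered 11650, and 18619 had no clear segment. Library 3 contributed 6587 S1-like but only 274 S3-like cells. Injured tubule-like cells, gated by genes such as Havcr1, Vcam1 and Krt20, numbered 624, with 180, 216, 197 and 25 cells in libraries 1 to 4 and under 20 in library 5. Of the 3 genes kept aside to check the injured class, Spp1, Clu and Cp, only 1 was highest there, whereas all 3 proximal tubule check genes were highest in their class. The cut on marker level had 1226 proximal tubule-like and 73 injured tubule-like cells just above it, with relative levels under 0.15. Levels are UMIs of a gene per 1000000 UMIs of its class (CPM), with exact 95% Poisson intervals that cover counting error only.

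The 10 genes together made up 2454 CPM in proximal tubule-like cells (95% interval 2448 to 2459). By library the summed level was 3049, 2085, 2969, 2283 and 1698 CPM, so library 1 and library 3 stood highest and library 5 lowest. Gsta2 gave 31.7% of the summed level, Gstm1 20.2%, Gstm5 19.3% and Gstt2 13.7%. Gsta3 gave 7.71%, Gstp1 3.79%, Gsta4 1.68%, Gsto1 1.5% and Gsta1 0.452%, and Gstm2 gave 0.0713%. A few abundant enzymes thus set the sum, and the members are described singly from here on.

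**Figure D1:**
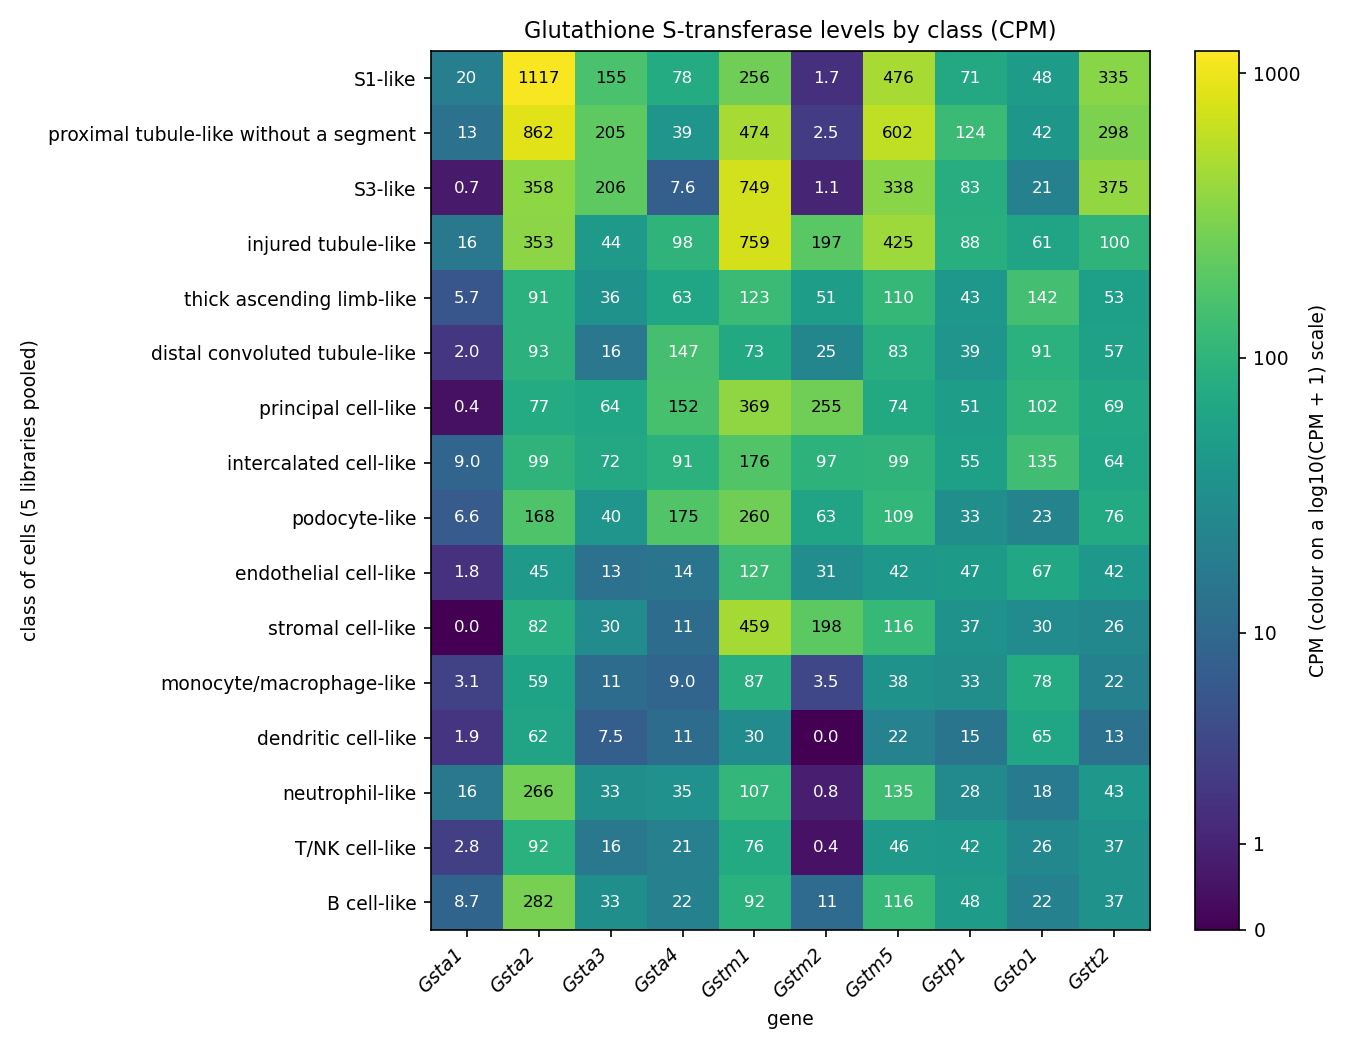
Level of each glutathione S-transferase gene (columns) in each class of cells (rows), in CPM with the 5 libraries pooled and the colour on a log10(CPM + 1) scale. Gsta2 reached 1117 CPM in S1-like cells, Gstm1 749 CPM in S3-like cells, and Gstm2 stayed between 1.1 and 2.5 CPM in the proximal tubule-like groups against 255 CPM in principal cell-like cells.

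Against all other gated cells pooled, proximal tubule-like cells had a higher summed level, 2454 against 987 CPM, which is 1.31 on the log2 scale (95% interval 1.30 to 1.33). The difference was 1.23, 1.38, 1.52, 1.82 and 0.97 within libraries 1 to 5. Injured tubule-like cells were among the other gated cells, with 2142 CPM and 14557 UMIs of the 10 genes, the most of any class there. The remaining classes in that pool had 228 to 1214 CPM. Of the 9 members with at least 10 CPM over both groups, 4 were at least 2-fold higher in proximal tubule-like cells, where 15.4% of the 7752 genes past the same level were. In the other direction 1 was at least 2-fold lower, Gsto1, where 13.2% of genes were. The median log2 ratio of the 9 was 0.84, against -0.11 over all genes tested. The genes were chosen because the family led a group of tubule cells, so nothing is read from these counts and medians.

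The 4 higher members were 2 alpha enzymes, 1 mu enzyme and the theta enzyme. Gsta3, an alpha enzyme known in rodents for detoxifying aflatoxin epoxide, stood at 189 against 32.0 CPM (log2 ratio 2.56). Gstt2, a theta class enzyme, stood at 336 against 57.6 CPM (2.54), and Gsta2 at 777 against 156 CPM (2.32). Gstm5 stood at 473 against 158 CPM (1.58). For each of these 4 the ratio was above 0 within all 5 libraries.

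Gsto1, an omega class enzyme that reduces dehydroascorbate and methylated arsenic, was lower in proximal tubule-like cells, with 36.9 against 77.8 CPM (log2 ratio -1.08), and lower within each of the 5 libraries, by -0.60 to -1.58. Its highest levels among gated classes were in thick ascending limb-like cells, 142 CPM, and in intercalated cell-like cells, 135 CPM, whose intervals overlapped (130 to 154 and 113 to 160). In the thick ascending limb-like cells of libraries 1 to 5 it stood at 200.3, 130, 127, 153 and 105 CPM. All 5 values were above the highest proximal tubule-like level of any library, 45.5 CPM.

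Gstm2, a mu class enzyme, was the 1 member below 10 CPM over both groups, and its levels are given here as values. Proximal tubule-like cells held 1.75 CPM and all other gated cells 88.8 CPM. This was a log2 ratio of -5.67, and each library on its own gave between -4.25 and -7.57. Its highest levels were in principal cell-like cells at 255 CPM (236 to 275), then stromal cell-like cells at 198 CPM (148 to 258) and injured tubule-like cells at 197 CPM (187 to 208). The stromal interval overlapped both others, and the injured tubule-like interval ended below that of the principal cells. In principal cell-like cells of libraries 1 to 5 Gstm2 stood at 313, 194, 117, 233 and 892 CPM, so library 5, with 24 such cells, was far above the others. The pooled order of classes rests in part on that library. Within library 1 injured tubule-like cells were above principal cell-like ones, at 388 CPM, and within libraries 2 to 4 below them. Library 5 had too few injured tubule-like cells to compare. In proximal tubule-like cells it was between 0.906 and 2.45 CPM in every library, below the ambient levels of its libraries, the lowest of which was 7.31 CPM, so its presence there was not told apart from free RNA.

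Among gated classes Gsta4, an alpha enzyme that prefers the lipid peroxidation product 4-hydroxynonenal, was highest outside the proximal tubule. It stood at 175 CPM in podocyte-like, 152 CPM in principal cell-like and 147 CPM in distal convoluted tubule-like cells, 3 neighbours whose intervals overlapped, and at 41.3 CPM in proximal tubule-like cells. The pooled log2 ratio of proximal tubule-like to other gated cells was -0.73, but within libraries it was -1.66, -1.82, 0.13, 0.81 and -2.63, so its sign differed between libraries.

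Gstm1, the main mu enzyme of many mouse tissues, stood at 495 against 290 CPM (log2 ratio 0.77). Its highest levels among gated classes were 759 CPM in injured tubule-like and 749 CPM in S3-like cells, whose intervals overlapped (739 to 780 and 743 to 755). Library 1 set the injured level, with 1500 CPM there against 483, 353 and 360 CPM in libraries 2 to 4, where S3-like cells were higher at 676, 509 and 487 CPM. Next were 474 CPM in proximal tubule-like cells without a segment and 459 CPM in stromal cell-like cells. Gstp1, a pi class enzyme, stood at 92.9 against 51.8 CPM (0.84). Gsta1 stood at 11.1 against 7.01 CPM (0.66), but with free RNA subtracted its ratio turned to -0.97. Library 3 set both levels, with 2884 of 2990 and 189 of 197 UMIs, and Gsta1 passed the 10 CPM level through it alone. The ratio was 0.38 without library 3, and -3.90 within library 5 on 9 and 5 UMIs.

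Free RNA was read from droplets of few UMIs, ranked 45000 to 90000 by UMIs in each library. They were taken as empty and were not tested for cells. In library 3 no droplet under 661 UMIs was tested, so some may hold cells or parts of cells. In libraries 1 to 5 this ambient profile held 1213, 1218, 3480, 2044 and 2604 CPM of the 10 genes, so it was richest in library 3. T/NK cell-like cells of library 3 had 20.1 CPM of Gsta1 and 350 CPM of Gsta2, and those of libraries 1, 2, 4 and 5 had 0 UMIs of Gsta1 and 57.2, 27.8, 118 and 56.6 CPM of Gsta2, the last on 3 UMIs. The levels in library 3 were 0.217 and 0.237 times the ambient ones of library 3, so both alpha genes stood in the lymphocytes at about the same share of the ambient level. Neutrophil-like cells, whose pooled Gsta1 level was 15.9 CPM, had 34.0 CPM in library 3 and 0 UMIs in libraries 1, 2 and 4. The alpha gene levels of these classes lay below the ambient ones and are not read as expression.

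Along the proximal tubule, Gsta2, Gsta4 and Gsto1 were higher in S1-like cells and Gstm1 in S3-like cells. Of the 9 members past the level, 1 was at least 2-fold higher in S3-like cells, against 3.83% of 7492 genes, and 4 were at least 2-fold lower, against 5.31%. The median log2 ratio of S3-like to S1-like cells was -0.49 over the 9 and -0.13 over all genes tested. The 4 lower ones included Gsta1, which passed the level through library 3 and was under 2-fold without that library (-0.92). No member served as a segment marker. Library 3, whose tubule cells chose the genes, held 6587 S1-like but only 274 S3-like cells. Nothing is therefore read from these pooled counts and medians.

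Gsta2, the most abundant member, had 1322, 983, 1200, 994 and 1065 CPM in S1-like cells of libraries 1 to 5 and 548, 338, 542, 512 and 148 CPM in S3-like cells. The 2 sets of libraries did not overlap, and the pooled levels were 1117 and 358 CPM (log2 ratio -1.64, 95% interval -1.66 to -1.62). Within libraries the ratio was -1.27, -1.54, -1.15, -0.96 and -2.84. Library 5 was the most extreme because its S3-like level was the lowest, while its S1-like level lay inside the range of the others. The S3-like levels of libraries 2 to 5, and the S1-like levels of libraries 3 and 5, lay below the ambient level of their library.

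Gsta4 had 69.2, 28.3, 110, 53.6 and 85.2 CPM in S1-like and 10.3, 5.17, 18.6, 11.4 and 5.56 CPM in S3-like cells. Every S1-like value was above every S3-like value, and the pooled ratio was -3.35 (77.8 against 7.62 CPM). All S3-like values, and the S1-like ones of libraries 2, 3 and 5, lay below the ambient level of their library (29.1 to 196 CPM). The S3-like levels were thus not told apart from free RNA. Gsto1 had 37.7 to 56.3 CPM in S1-like and 14.5 to 31.7 CPM in S3-like cells, again with no overlap, and a pooled ratio of -1.16. Its ratio within libraries lay between -0.83 and -1.38. All S3-like values of Gsto1, and the S1-like ones of libraries 2 to 5, were below the ambient level of their library (26.9 to 57.9 CPM).

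Gsta1, a little-expressed alpha enzyme, had the largest pooled ratio, -4.92 (0.656 against 19.9 CPM), but library 3 decided that value. Without library 3 the ratio was -0.92, and within libraries it was -1.12, -2.81, -1.43, 1.80 and -4.34, on 7 to 9 UMIs in the S1-like cells of each library but the third. Library 3 held most Gsta1 UMIs and few S3-like cells, so the pooled value set S1-like cells of library 3 against S3-like cells of the other libraries.

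Gstm1 went the other way. It had 325, 150, 350, 180 and 144 CPM in S1-like cells and 1225, 676, 509, 487 and 484 CPM in S3-like cells of libraries 1 to 5. The lowest S3-like level was above the highest S1-like level, and the pooled ratio was 1.55 (749 against 256 CPM). Within libraries the ratio was 1.91, 2.17, 0.54, 1.44 and 1.75, lowest in library 3.

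The other members differed by less than 2-fold. Gstp1 was higher in S3-like cells within each library, by 0.60 to 0.96 on the log2 scale, although the pooled ratio was only 0.22 and was -0.072 without library 1. Gsta3 was higher by 0.074 to 0.58 within libraries (pooled 0.41). Gstm5 lay between -0.27 and 0.24 within libraries, against -0.49 pooled, and Gstt2 between -0.14 and 0.079. Gstm2 was at 1.08 and 1.69 CPM, both below the ambient level.

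**Figure D2:**
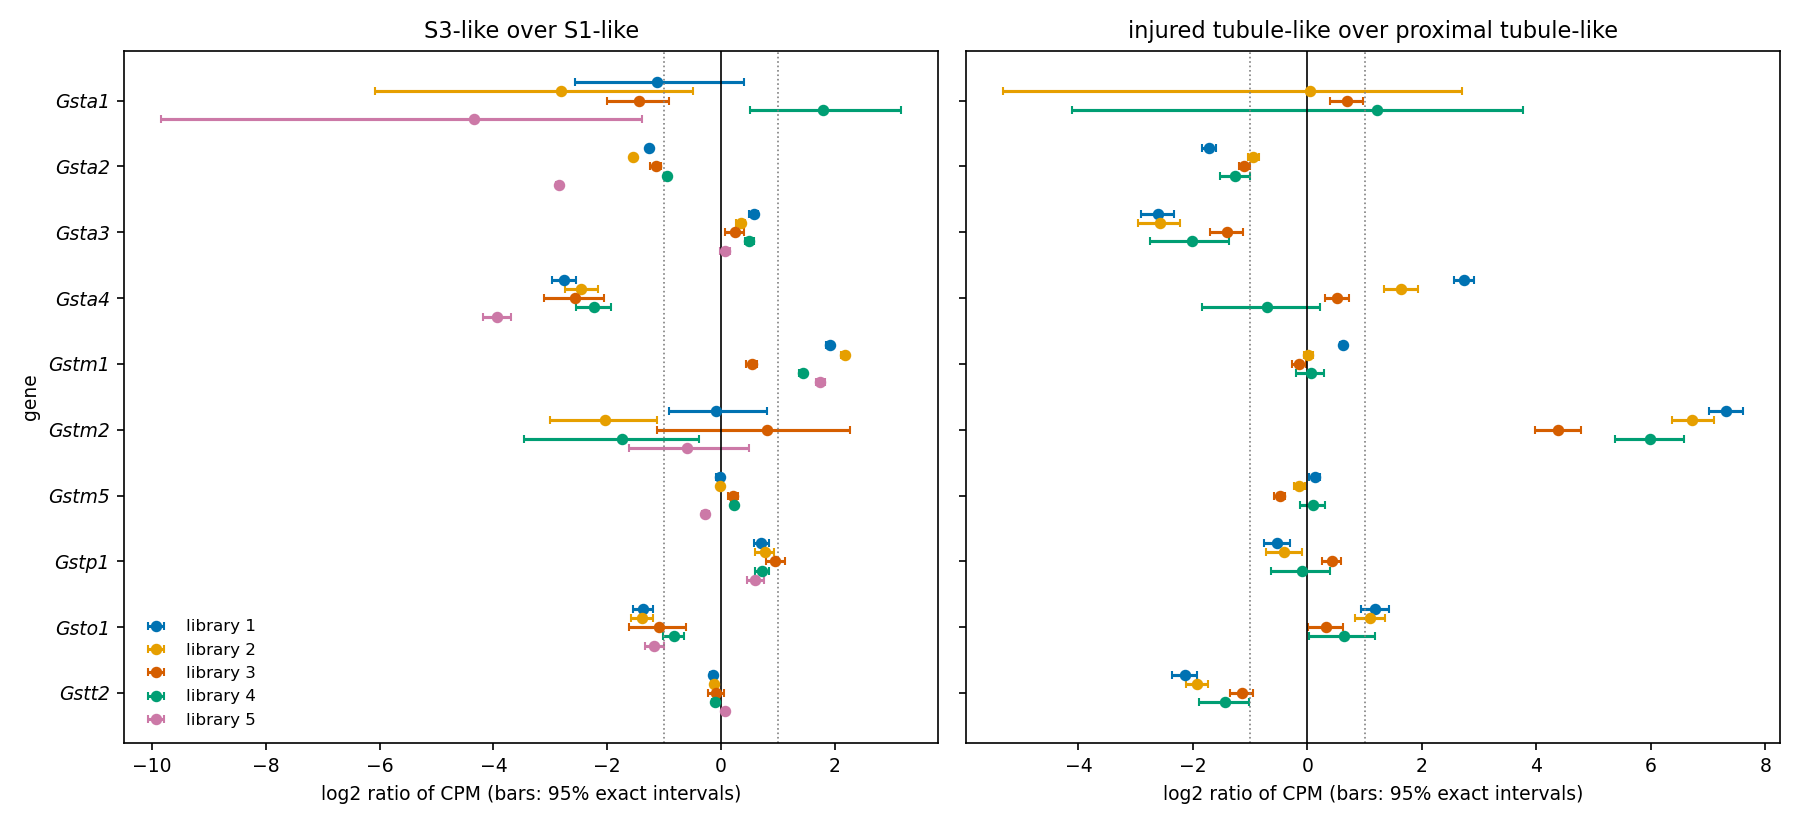
Log2 ratio of CPM within each library for each gene, S3-like over S1-like cells on the left and injured tubule-like over proximal tubule-like cells on the right, with exact 95% intervals for counting error and dotted lines at a 2-fold difference. Gsta2, Gsta4 and Gsto1 lay left of 0 and Gstm1 right of 0 in all 5 libraries on the left, and on the right Gstm2 lay at 4.38 to 7.31, with no point for Gsta1 in library 1, where injured tubule-like cells had 0 UMIs, and none for library 5, with under 20 such cells.

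Summed over the 10 genes, S3-like cells had 2140 and S1-like cells 2557 CPM, a log2 ratio of -0.26 (-0.27 to -0.25). The sum hid opposed members, with Gsta2 at 43.7% of it in S1-like and 16.7% in S3-like cells, and Gstm1 at 9.99% and 35.0%. Within libraries the summed ratio was 0.067, -0.11, -0.23, -0.056 and -0.54, so its sign was not the same in all 5, and with free RNA subtracted it was 0.029. The member ratios named above as 2-fold kept their sign with free RNA subtracted, at -1.98 for Gsta2, -5.60 for Gsta4, -2.02 for Gsto1 and 2.30 for Gstm1.

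**Figure D3:**
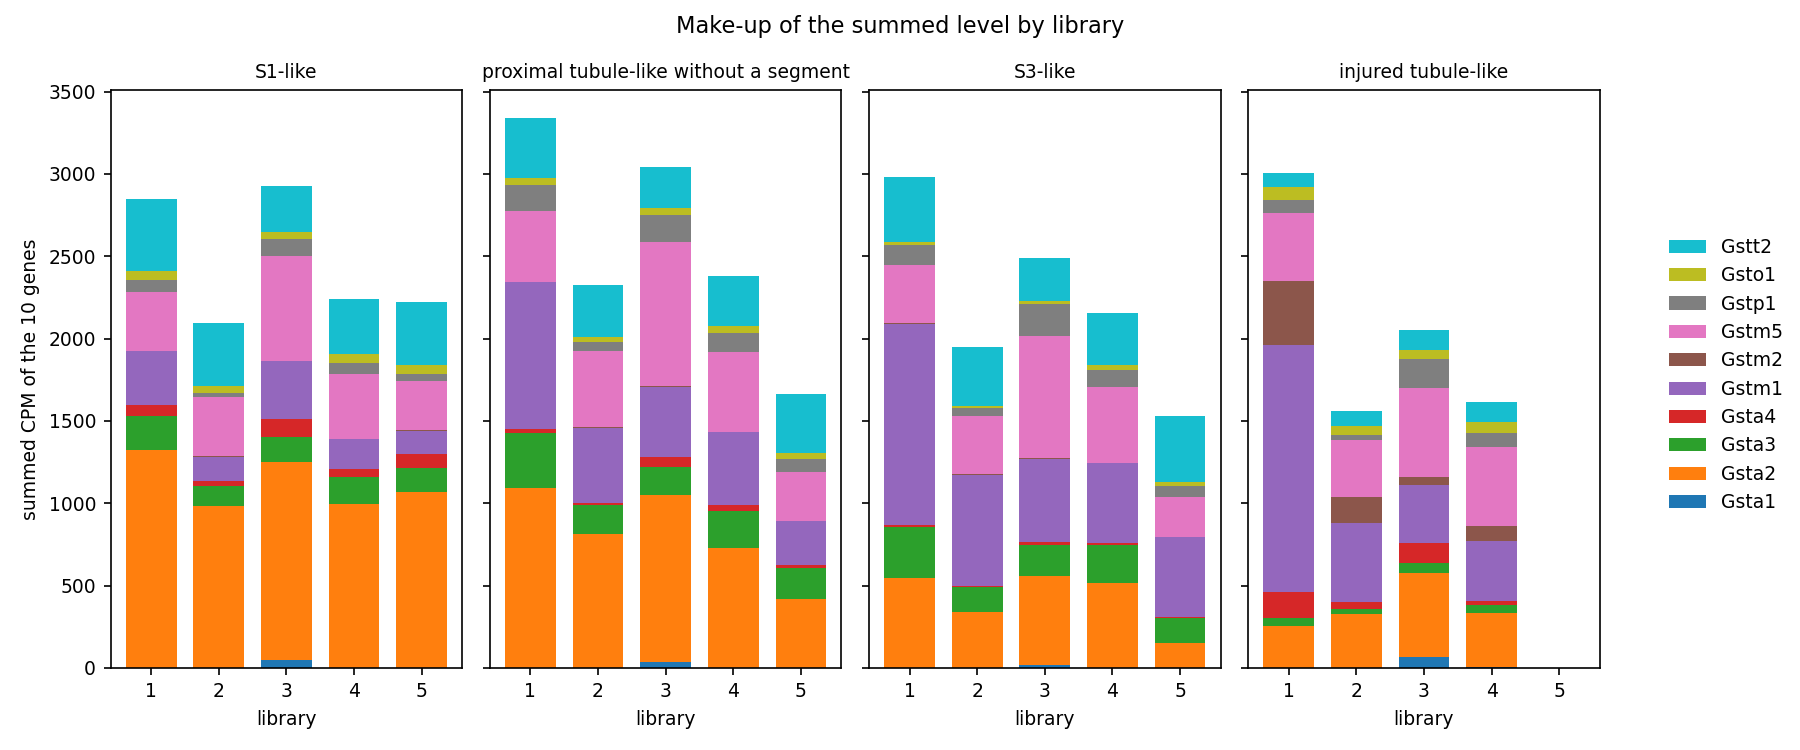
Summed level of the 10 genes in CPM, stacked by gene, in each library for S1-like, proximal tubule-like without a segment, S3-like and injured tubule-like cells. The Gsta2 layer was thickest in S1-like cells and the Gstm1 layer in S3-like cells and in injured tubule-like cells of library 1, where Gstm1 alone was 1500 CPM, and injured tubule-like cells of library 5 are not drawn because there were under 20.

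Library 3 was compared with the others because the family was chosen for its level there, so these values are descriptions. In proximal tubule-like cells the summed level was 2969 CPM in library 3 and 2261 CPM in the other libraries pooled, a log2 ratio of 0.39. It was not the highest library: the ratio was -0.038 over library 1, 0.51 over library 2, 0.38 over library 4 and 0.81 over library 5. Of the 9 members past the level, 3 were at least 2-fold higher in library 3, against 2.65% of 7442 genes, and 0 were at least 2-fold lower, against 2.39%. Since the rule used this contrast, nothing is read from these counts. The median log2 ratio was 0.74 over the 9 members and 0.075 over all genes tested.

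Gsta1 had the largest ratio of library 3 to the other libraries in proximal tubule-like cells. In proximal tubule-like cells of libraries 1 to 5 it had 0.521, 0.376, 39.3, 1.12 and 0.181 CPM, which rested on 24, 20, 2884, 53 and 9 UMIs. The log2 ratio of library 3 to the rest was 6.19 (95% interval 5.91 to 6.48). It was 6.24 in S1-like cells, 5.73 in S3-like cells, 5.35 in those without a segment and 7.34 in injured tubule-like cells, where the interval was 5.45 to 10.4 because the other libraries held only 2 UMIs. Without library 4, the highest of the others, the ratio was 6.23 in cells without a segment and 6.63 in S3-like cells. Outside library 3, cells left without a class in library 4 held 25.02 CPM of Gsta1 (17.5 to 34.6), which came from 36 UMIs in 8 of 417 cells and was 15.5 times the ambient level of that library.

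In S1-like cells of library 3, 15.5% of cells had a Gsta1 UMI (exact binomial 95% interval 14.6 to 16.4), against 0.247% to 0.469% in the other libraries. T/NK cell-like cells of library 3, which should lack the gene, had one in 3.87% of cells (1.57 to 7.81). Median UMIs of these classes were 5029 and 1691 over all libraries. With each cell thinned to 1000 UMIs the shares in library 3 were 4.21% (3.72 to 4.75) of 6102 S1-like cells and 1.17% (0.142 to 4.16) of 171 T/NK cell-like cells, and these intervals overlapped. The ambient level of library 3, 92.8 CPM, was above that in its tubule cells, and the other libraries had 0.309 to 1.62 CPM. With free RNA subtracted the library 3 ratio of Gsta1 was 3.69, and that of the summed level 0.024 in place of 0.39. The cells that shed the ambient Gsta1 cannot be told apart from these data.

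Gsta4 had 24.2, 13.5, 86.2, 38.4 and 23.2 CPM in proximal tubule-like cells, highest in library 3, with a log2 ratio of 1.82. It was 0.99 in S1-like and 1.49 in cells without a segment, and 0.36 over all proximal tubule-like cells with free RNA subtracted. Gstm5 had 374, 384, 756, 445 and 269 CPM, again highest in library 3, with a ratio of 1.04 and of 0.86 with free RNA subtracted. In S1-like cells it was 0.84, in S3-like cells 1.17 and in those without a segment 1.02.

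Gsta2 had 833, 634, 1097, 793 and 391 CPM and a library 3 ratio of 0.74, which was 0.18 within S1-like cells and 0.41 in those without a segment. Gstp1 had 121, 44.3, 131, 91.8 and 63.7 CPM and a ratio of 0.74, with libraries 1 and 3 close together. Gsto1 had 32.6, 24.7, 44.5, 45.5 and 34.4 CPM, so library 4 was as high as library 3, and the pooled ratio was 0.39. Over all proximal tubule-like cells Gsta2 was thus highest in library 3, by less than 2-fold over the next library. In libraries 3, 4 and 5 these Gsta2 levels lay below the ambient ones, 1476, 889 and 1336 CPM, and in libraries 1 and 2 above them. Library 1 was above library 3 in Gsta2 within S1-like cells, 1322 against 1200 CPM, and within cells without a segment, 1094 against 1018 CPM. In S3-like cells the libraries were alike within counting error, 548 CPM in library 1 and 542 CPM in the 274 cells of library 3. Within segments Gstp1 was highest in library 3, with 99.01 against at most 74.1 CPM in S1-like, 192 against at most 122 CPM in S3-like and 162 against at most 153 CPM in cells without a segment. The ambient level of Gstp1 was also highest in library 3, at 134 CPM against 19.8 to 51.8 CPM. The S1-like value of library 3 lay below its ambient level, and its S3-like and no-segment values lay above it. In S1-like cells libraries 1, 2 and 4 lay above their ambient levels, and library 5 just below.

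Gstm1, Gsta3 and Gstt2 were lower in library 3 than in the rest pooled. Gstm1 had 971, 477, 389, 347 and 368 CPM in libraries 1 to 5, and its ratio was -0.46 with library 1 and -0.039 without it, library 3 being above libraries 4 and 5. Gsta3 had 296, 152, 162, 201 and 160 CPM, with a ratio of -0.30 that was -0.071 without library 1. Gstt2 had 394, 353, 261, 320 and 387 CPM, lowest in library 3, with a ratio of -0.48 that was -0.43 to -0.52 within each of the S1-like, S3-like and no-segment groups. Gstm2 was at 2.24 CPM in library 3 and 1.57 CPM in the rest.

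**Figure D4:**
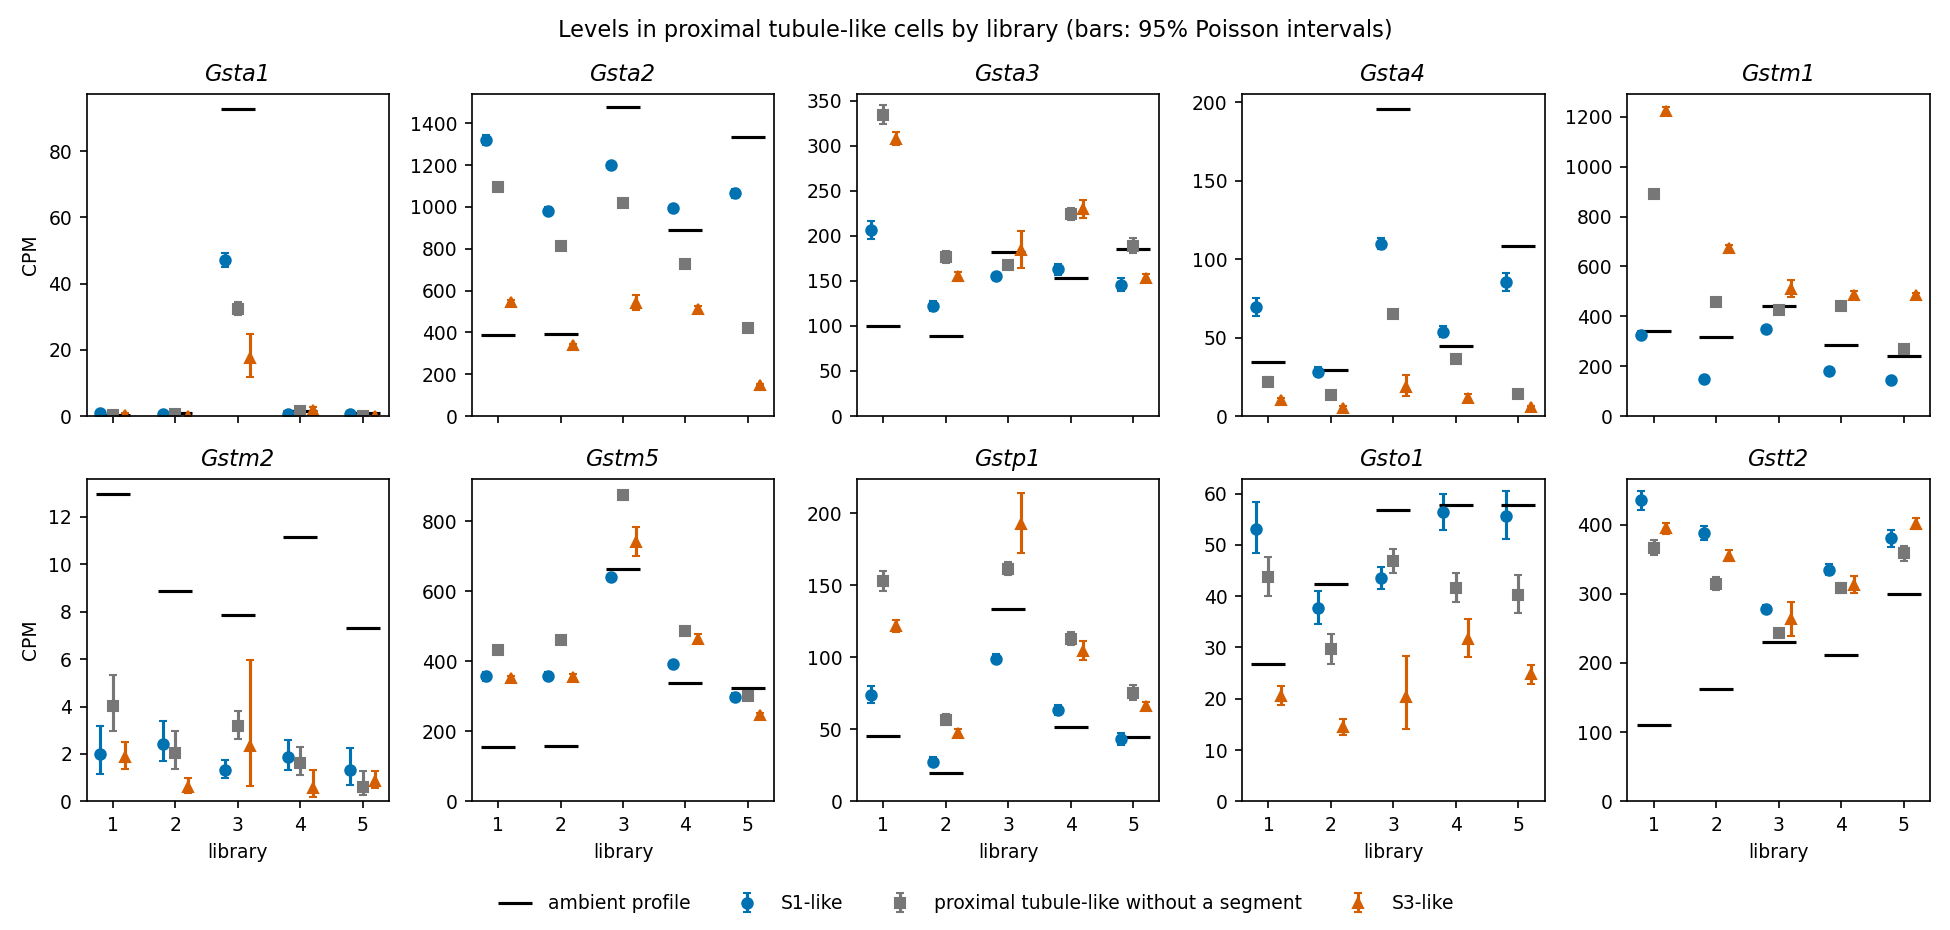
Level of each gene in CPM by library in S1-like cells (circles), proximal tubule-like cells without a segment (squares) and S3-like cells (triangles), with 95% Poisson intervals and the ambient level of the library as a black line, each panel on its own linear axis from 0. Gsta1 reached 47.1 CPM in S1-like cells of library 3 and at most 1.68 CPM in the other libraries, under an ambient line at 92.8 CPM.

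The segments were also compared one at a time. In S1-like cells 1 of 9 members, Gsta1, was at least 2-fold higher in library 3, against 1.65% of 7638 genes, and 0 were lower, against 0.916%. Gsta4 (0.99), Gstp1 (0.95), Gstm1 (0.89) and Gstm5 (0.84) stood just under 2-fold there, and the median over the 9 was 0.84 against 0.027 over all genes. In cells without a segment 3 of 9, Gsta1, Gsta4 and Gstm5, were higher, against 2.42% of 7355 genes, and 0 were lower, against 1.32%, with a median of 0.41 against 0.089. Gstm1 was thus higher in library 3 in S1-like cells and lower in S3-like (-0.57) and injured tubule-like cells (-1.34). Library 1 weighed on these values, and without it they were 1.11, -0.14 and -0.43. In S1-like cells and in cells without a segment Gsta1 passed the level through library 3 alone. The filter could thus keep it only if it was higher there. These comparisons share the libraries and repeat the contrast that chose the genes, so nothing is read from the counts and medians.

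**Figure D5:**
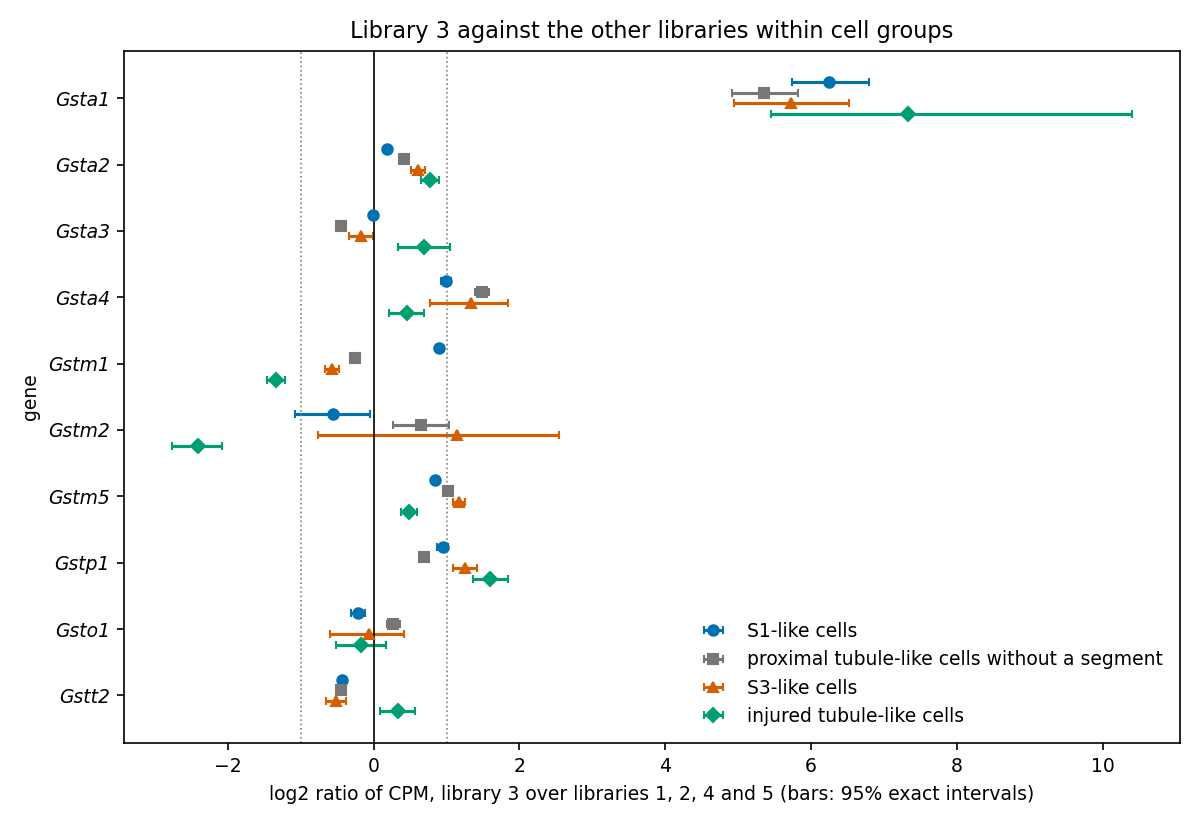
Log2 ratio of CPM of library 3 over libraries 1, 2, 4 and 5 pooled, for each gene within S1-like, no-segment, S3-like and injured tubule-like cells, with exact 95% intervals for counting error and dotted lines at a 2-fold difference. Gsta1 lay at 5.35 to 7.34 in all 4 groups, the last resting on 2 UMIs outside library 3, whereas Gstm1 ran from 0.89 in S1-like cells to -1.34 in injured tubule-like cells, a value that is -0.43 without library 1.

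Of a list of 15 markers of cell state, 13 passed the level in proximal tubule-like cells, all but Krt20 and Vcam1. In library 3, 4 were at least 2-fold higher (Lcn2, Clu, Havcr1 and Spp1), against 2.65% of all genes. At least 2-fold lower were 2 (Slc7a13, a gate gene of the S3 segment, and Hspa1a), against 2.39%. Lcn2 and Havcr1 passed the level only through library 3, so the filter could keep them only if they were higher there. Slc34a1, the brush border phosphate transporter, had 4628, 4018, 2079, 3742 and 3506 CPM in libraries 1 to 5, and Havcr1, the kidney injury molecule, 4.38, 12.7, 53.1, 10.8 and 0.745 CPM. Spp1, which encodes osteopontin, had 836, 2105, 12242, 4024 and 677 CPM, and Lcn2, which encodes the injury protein NGAL, 5.79, 8.51, 64.7, 5.09 and 0.0201 CPM. Within library 3, Gsta1 fell from 61.4 to 32.8 to 13.6 CPM and Gsta4 from 148 to 66.3 to 32.3 CPM over bands of proximal tubule marker level of 0.1 to 0.25, 0.25 to 0.5, and 0.5 and over. Median UMIs of these bands were 3452, 5320 and 4766. Both genes lay below the ambient levels of library 3, 92.8 and 196 CPM, in each band. Gsta4 was also highest in the lowest band and lowest in the top band in each of the other 4 libraries, from 63.1 to 15.2, 36.7 to 9.33, 256 to 24.0 and 78.1 to 12.5 CPM in libraries 1, 2, 4 and 5, so this order was not particular to library 3. Gsta1 there rested on 1 to 30 UMIs a band and was likewise highest in the lowest band, at 1.03 to 7.33 CPM. In libraries 1, 2, 4 and 5 the lowest band had median UMIs of 1620, 1928, 3535 and 1616. The top band had 6174, 6821, 5523 and 6084. In the lowest band Gsta4 was above the ambient level in libraries 1, 2 and 4 and below it in library 5. Gsta1 was above it in these 4 libraries, on few UMIs. The part of depth and free RNA in this order was not tested. Within library 3, Gsta1 was 43.2 CPM in the 2415 cells with a Havcr1 UMI and 38.0 CPM in the 11498 without one. Gsta4 was 66.2 and 93.1 CPM. Median UMIs of these cells were 6843 and 4417, and the part of depth in this split was not tested. In libraries 1, 2, 4 and 5 Gsta1 was likewise higher in cells with a Havcr1 UMI, on 1 to 9 UMIs in those cells. Over the 15 markers library 3 was the highest library for 6, among them Krt20, a gate gene of the injured class (5.41 CPM against 0.121 to 1.29 CPM), and the lowest for 5, among them the organic anion transporters Slc22a6 (444 against 542 to 770 CPM) and Slc22a8 (160 against 215 to 279 CPM). It lay within the range of the other libraries for the other 4, Vcam1, Lrp2, Slc5a2 and Jun. Vcam1, a gate gene of the injured class, had 6.94, 13.4, 1.94, 2.77 and 0.362 CPM in libraries 1 to 5, Lrp2, the endocytic receptor megalin, 666, 999, 780, 1004 and 984 CPM, and Slc5a2, a glucose transporter, 164, 226, 276, 288 and 161 CPM. Within S1-like cells Slc5a2, a gate gene of that segment, was lowest in library 3, at 459 CPM against 637 to 764 CPM. Slc34a1 and Lrp2 are gate genes of the proximal tubule class, and Havcr1 is one of the injured class. The gates bear on the levels of all these genes within a class. The part of cell state in the library 3 levels was not tested.

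Between injured tubule-like and proximal tubule-like cells, Gstm2 was higher and Gsta3, Gstt2 and Gsta2 were lower in the injured cells of each of 4 libraries. Of the 9 members past the level, 1 was at least 2-fold higher, Gsta4, against 13.4% of 7511 genes, and 3 were at least 2-fold lower, Gsta2, Gsta3 and Gstt2, against 12.4%. The median log2 ratio was -0.084 over the 9 and 0.25 over all genes tested. Gstm2 was again under 10 CPM over both groups and outside these counts, although it differed the most.

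In injured tubule-like cells of libraries 1 to 4 Gstm2 had 388, 155, 46.4 and 96.6 CPM, and 2.45, 1.47, 2.24 and 1.52 CPM in the proximal tubule-like ones. Every injured value was above every proximal value and above the ambient level. The pooled log2 ratio was 6.82 (95% interval 6.67 to 6.97), and it was 7.31, 6.72, 4.38 and 5.99 within libraries 1 to 4. A UMI was found in 31.4% of the injured tubule-like cells (27.8 to 35.2) and, of T/NK cell-like cells, in 0.0810% (0.00205 to 0.451), with median UMIs of 7672.5 and 1691. Thinned to 1000 UMIs, 13.7% of 599 injured cells and 0 of 1148 T/NK cell-like cells (upper bound 0.321%) had one.

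Gsta3, Gstt2 and Gsta2 were lower in injured tubule-like cells in each of the 4 libraries. Gsta3 had 48.4, 25.3, 61.1 and 49.6 CPM there and a pooled ratio of -2.11 (43.7 against 189 CPM). Gstt2 had 89.1, 93.1, 118 and 118 CPM and a ratio of -1.74, and Gsta2 254, 329, 511 and 332 CPM and a ratio of -1.14. For all 3 the injured values lay below those of the proximal tubule-like cells of libraries 1 to 4. All of these injured values lay below the ambient level of their library, and with free RNA subtracted the ratios were -3.82, -2.54 and -1.52.

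Gsta4 was 161, 42.1, 123 and 23.5 CPM in injured tubule-like cells of libraries 1 to 4, with a pooled ratio of 1.25 that was 2.73, 1.64, 0.52 and -0.71 within libraries. The sign thus turned in library 4, which held 25 such cells. Gsto1 was higher within each of the 4 libraries, by 0.33 to 1.19 (pooled 0.73), but by 0.047 with cells thinned to 1000 UMIs. Gstm1 had a pooled ratio of 0.62 that was 0.63, 0.018, -0.14 and 0.056 within libraries and 0.12 without library 1, where injured cells had 1500 CPM. Gstm5 had a pooled ratio of -0.15 that was 0.13, -0.14, -0.48 and 0.095 within libraries, and Gstp1 one of -0.084 that was -0.53, -0.40, 0.43 and -0.091. The sign of both thus turned between libraries, and also with the processing. Gsta1 had a ratio of 0.55, with 108 of its 110 UMIs in injured tubule-like cells from library 3.

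The summed level was 2142 CPM in injured tubule-like cells against 2454 CPM, a log2 ratio of -0.20 (-0.22 to -0.17). Within libraries 1 to 4 it was -0.020, -0.42, -0.54 and -0.50, and with free RNA subtracted the pooled value was 0.086. It was -0.029 without library 2, -0.058 without library 3 and -0.41 without library 1. The median of the 10 single ratios was 0.23, opposite in sign to the sum.

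Several members shared transcript ends with near-copies, and reads of such stretches cannot be told apart between genes. Of the stretches of 91 bases in the last 500 bases of its transcripts, Gsta1 shared 77.6% with Gm3776, Gsta2 29.7% with Gm10639 and 11.1% with Gsta1, and Gstp1 69.3% with Gstp2. The levels of these 3 genes are therefore uncertain. Gm3776 had 0.0868, 0.0376, 14.2, 0.254 and 0.101 CPM in proximal tubule-like cells of libraries 1 to 5 and Gm10639 5.71, 7.97, 30.4, 6.57 and 4.31 CPM, both highest in library 3. Gstp2 was at 0.695 to 2.71 CPM. Gstm1 shared 11.6% and Gstm2 2.29%, and Gsta3, Gsta4, Gstm5, Gsto1 and Gstt2 shared none.

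The genes around the transferases in glutathione metabolism were followed by fixed lists. Classes were compared with libraries pooled, although library 3 held few S3-like cells. The counts stand beside the shares over all genes already given. For at least 2-fold higher and lower these were 3.83% and 5.31% in S3-like over S1-like, 2.65% and 2.39% in library 3 over the rest, 13.4% and 12.4% in injured over proximal tubule-like and 15.4% and 13.2% in proximal tubule-like over other gated cells. Of the 8 listed genes of the mercapturate pathway, 6 were at least 2-fold higher and 1 was lower in S3-like cells. Acy3, an aminoacylase, stood at 1697 against 342 CPM (log2 ratio 2.31), Cndp2, a dipeptidase, at 1543 against 315 CPM (2.29), and Dpep1, another dipeptidase, at 14.6 against 135 CPM (-3.21). In library 3 proximal tubule-like cells 0 were higher and 4 lower, with Acy3 at -1.63, Ggt1, which removes the glutamyl group from conjugates, at -1.25 and Cndp2 at -1.17, but 0 of 8 were at least 2-fold lower within S1-like cells, where 0.916% of all genes were, and 1 of 8, Acy3 (-1.17), in cells without a segment, where 1.32% were. In injured tubule-like cells 0 were higher and 7 of 8 lower, and against other gated cells all 8 were higher in proximal tubule-like cells.

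Of 6 glutathione synthesis and supply genes past the level, 2 were higher in S3-like cells, Ggct (2.74) and Gclc (1.60), the catalytic subunit of the rate-limiting ligase. In library 3, 0 were higher and 1 was lower, Ggct (-2.15), in injured tubule-like cells 0 were higher and 3 lower, and against other gated cells 5 were higher and 0 lower. Of the listed Nrf2 genes, 3 of 7 were higher in S3-like cells, Nqo1 (1.67), Me1 (1.27) and Osgin1 (1.21), and 0 of 7 were higher and 1 lower in library 3, Osgin1 (-1.12). Within S1-like cells 0 of 7, and within cells without a segment 0 of 8, differed 2-fold in library 3. In injured tubule-like cells 1 of 8 was higher and 3 were lower, among them Osgin1 (-2.86), and against other gated cells 3 of 8 were higher and 2 lower. The 1 of 8 higher in injured tubule-like cells is near the share over all genes.

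Among the 14 other family members with a row, 4 passed the level, and none differed 2-fold between segments or in library 3. In injured tubule-like cells 2 of the 4 were lower, Gstz1 (-1.99) and Gstk1 (-1.36), and the same 2 were higher in proximal tubule-like than in other gated cells (2.63 and 1.23). Of the 2 microsomal transferases past the level, 1 was higher in library 3, Mgst1 (1.03). Within S1-like cells 1 of 2 was higher in library 3, and within cells without a segment 0 of 2. In S3-like or in injured tubule-like cells 0 of 2 differed 2-fold. Against other gated cells 1 of 3 listed genes was lower, Alox5ap (-5.18), the leukocyte partner of 5-lipoxygenase. Alox5ap passed the level only through the other gated cells, so the filter could keep it only if it was lower in proximal tubule-like cells.

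Of the 8 glutathione redox genes, 0 were higher and 1 was lower in S3-like cells, Gpx3 (-1.66), the secreted peroxidase made by the proximal tubule. None differed 2-fold in library 3, 1 was higher and 2 were lower in injured tubule-like cells, with Gpx3 at -1.38 and Srxn1 at 1.17, and 3 were higher against other gated cells.

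The genes most like each member were sought over 43 groups of class by library with at least 50 cells, as Pearson's r of log2(CPM + 10). The groups share libraries, depth and free RNA, and r is a description. Gsta2 was most like Gpx3 (0.96), Cpn1 (0.95) and Slc13a1 (0.95), Gsta3 like Slc22a18 (0.95), Dhrs4 (0.95) and Rida (0.95), and Gstm5 like 1700016C15Rik (0.96), Dbi (0.96) and Slc13a1 (0.95). Gstt2 was most like 4931406C07Rik (0.97), Sfxn1 (0.96) and Slc19a1 (0.95), and Gstm1 like Agt (0.91), Them7 (0.86) and Decr1 (0.86). Gstm2 was most like Gpx8 (0.92), Ltbp3 (0.89) and Efemp1 (0.89). Lower values were found for Gsta1, with Gm3776 (0.89), Pin4 (0.69) and Fgb (0.65), for Gstp1, with Psma4 (0.80), Aldh1a7 (0.78) and Timm50 (0.76), for Gsto1, with Mitf (0.79), Ocrl (0.78) and Kif3a (0.78), and for Gsta4, with P3h2 (0.78), Cxxc5 (0.78) and Chchd6 (0.78). Among the members themselves Gsta3 and Gstt2 were the most alike (0.93), and Gsta2 and Gsto1 the least (-0.29).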

How the data were processed

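Kidney cell suspensions were profiled with 10x Genomics 3' v3.1 chemistry. Per the study's methods and the submitters' processing notes, the authors aligned reads to mm10 (Ensembl GRCm38.93) with Cell Ranger 6.0 and deposited raw UMI counts for all barcodes of 5 libraries in 1 matrix, so droplets without cells were included and no cell filter was applied to it. The methods name more single matrices than the 5 libraries found, and no label maps libraries to groups.

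Cells were called by UMI number and then by difference from the ambient profile (10000 simulations, adjusted p at most 0.01, at least 500 UMIs, at most 20000 barcodes a library), then kept with at least 200 genes and at most 25% mitochondrial UMIs. A cell took the class of its highest marker level (at least 2 markers, at least 0.1 of the reference level, 2 times the next class), and no doublet caller was run. The lead over the next class leaves out cells with similar marker levels of 2 classes, but doublets within a class or with 1 dominant partner remain. UMIs were summed per class, and by library where there were at least 20 cells, to give CPM with exact Poisson intervals. Log2 ratios had exact conditional binomial intervals, and UMIs were taken as independent. UMIs at transcript ends need no division by length. Genes with at least 10 CPM over both groups were compared, and a 2-fold difference was counted. The matrix was treated as 1 pooled sample, and no test was run. Free RNA was subtracted, as an alternative, by the share of other classes' markers. Python 3.11.15, NumPy 2.4.6, SciPy 1.17.1 and pandas 2.3.3 were used, and the calling and the ratios were tested on simulated data. RefSeq promoters and GENCODE transcripts (GRCm38) were searched by exact letters.

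All 10 members were named, with up to 3 genes of the largest ratio in each list and the 3 genes most like each member. The members, lists and comparisons were chosen with earlier results of these data known. The goblet cell genes, the uroplakin genes, the near-copies and the library 3 comparisons within segments, also without each other library, were added after the data were seen. The list of export genes is not reported here.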

Additional observations from a re-analysis of the deposited data

Results flagged for a closer look

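Free RNA of library 3 was flagged because droplets taken as empty carried strong signals of the alpha genes. They are part of no compared group and serve only as the ambient background, and they were not tested for cells. Its ambient profile held 92.8 CPM of Gsta1, against 0.309 to 1.62 CPM in the other libraries, and 1476 CPM of Gsta2, against 385 to 1336 CPM.

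Cells left without a class also stood out. Among them, 169 cells, 128 of these from library 3, had UMIs of at least 2 of 4 uroplakin genes, which mark the urothelium, and they were looked at after the data were seen. They held 2551 CPM of Gsta4 (95% interval 2481 to 2623), 5676 CPM of Gstm1 and 1037 CPM of Gsto1, each above its level in every gated class. In library 3 alone these were 2465, 3200 and 1151 CPM, and Gsta2 stood at 161 CPM, below its ambient level.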

How the results depend on the processing

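With 1 pooled sample the direction of summed ratios, not a test, was compared. No test paired by library was run, and the ratios within libraries are given as values. The summed log2 ratios are given in the order S3-like over S1-like, library 3 over the rest, injured over proximal tubule-like and proximal tubule-like over other gated cells (as reported -0.26, 0.39, -0.20 and 1.31). Free RNA subtraction gave 0.029, 0.024, 0.086 and 1.71, so the first and the third changed sign. A limit of 10% mitochondrial UMIs gave -0.30, 0.40, -0.31 and 1.43, the mean of per-cell CPM -0.24, 0.37, -0.12 and 1.70, equal library weights -0.15, 0.38, -0.23 and 1.38, thinning -0.24, 0.38, -0.11 and 1.71, and the median of the members -0.57, 0.63, 0.23 and 0.81. Every barcode of at least 500 UMIs gave -0.28 and 0.43 for the first pair, a lead of 4 times -0.16 for the third, and 3 markers -0.35 and 1.47 for the last pair. The library 3 ratio was 0.35 within S1-like, 0.22 within S3-like and 0.32 within cells without a segment, added after the data were seen. Leaving out library 1, 2, 3, 4 or 5 gave -0.48, -0.26, -0.11, -0.31 and -0.10 for the first, 0.56, 0.35, 0.40 and 0.28 for the second (library 3 stays in), -0.41, -0.029, -0.058, -0.20 and -0.30 for the third, and 1.39, 1.26, 1.23, 1.29 and 1.40 for the fourth. Of 62 summed values 48 moved beyond counting error. Of 708 single-gene values under the alternatives, 685 kept their direction but 363 moved beyond counting error. Gsta1 had 9 to 53 UMIs in proximal tubule-like cells of each library other than library 3, so small differences there were not detectable.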
